A study of Mus musculus with 9 samples.

Results

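The Ube2 genes, which encode ubiquitin conjugating enzymes, and the Usp genes, which encode ubiquitin specific proteases, were taken as the genes of array probes with exactly 1 platform symbol that begins with Ube2, or with Usp and a digit. There were 60 such genes among 7117 genes on the array, 25 Ube2 genes with 42 probes and 35 Usp genes with 60 probes. One further probe named a Usp gene beside another gene and was left out.

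The ubiquitin system attaches the small protein ubiquitin to other proteins and takes it off again. An E1 enzyme activates ubiquitin, an E2 conjugating enzyme (Ube2 genes) carries it on an active-site cysteine, and an E3 ligase helps to pass it to the target. The ubiquitin specific proteases (Usp genes), the largest family of deubiquitinating enzymes, cut it off. In the testis this system acts on histones, on DNA repair complexes at meiotic chromosomes and on proteins that are removed as germ cells mature.

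Total RNA of whole testes was compared between Spo11-/- mice, which lack the enzyme that makes the DNA breaks of meiosis, and wild-type mice on 2-colour cDNA arrays. Each of the 9 arrays carried 1 Spo11-/- and 1 wild-type sample, 4 of them from 15-day-old and 5 from 12-day-old animals. Spo11-/- RNA carried the dye Cy3 on all 4 arrays at 15 days and on 12-day replicates 2 and 3, and Cy5 on 12-day replicates 1, 4 and 5. The design text speaks of 4 replicates from separate pairs of mice of 1 litter, and the strain and the allele are not named. At 12 days there are 5 arrays in both dye orientations, and whether any of them share RNA extracts is not stated. Each array was counted as 1 replicate, so p-values measure the spread between arrays, which at 12 days and between the ages may in part be technical. Replicates are numbered in order of deposit.

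Every value is a ratio of the 2 samples on a log2 scale, so the arrays give no levels, and markers of testis cell types can be read only as ratios. In whole tissue, fewer cells of a type and less RNA per cell cannot be told apart. The direction of the ratio was not settled. The 15-day arrays correlated with each other across probes (r = 0.38 to 0.60) but below 0 with 12-day replicates 2 and 3 of the same dye orientation (r = -0.38 to -0.11). Values at 15 days are therefore given as above or below 0 as deposited. Under a Cy5 over Cy3 reading, genes below 0 were higher in Spo11-/- testis, and under the opposite reading they were lower. Between 96.1% and 98.0% of the 102 probes had a value on a 15-day array, and between 85.3% and 95.1% on a 12-day array.

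The 15-day comparison asks which genes differ in testes without Spo11. Spo11-/- RNA was in Cy3 on every 15-day array. From these arrays alone, a gene's dye effect therefore cannot be told apart from the Spo11-/- effect. Of the 25 Ube2 genes 1 passed the test above 0 (Ube2a) and 1 below (Ube2t). Of the 35 Usp genes 2 passed above 0 (Usp9x and Usp48) and 2 below (Usp1 and Usp47). A gene passed at a limma adjusted p under 0.05 over all features of the array. The share that passed was 8.0% for Ube2 and 11.4% for Usp genes, against 11.2% of all 6958 genes tested, 4.04% above 0 and 7.2% below. All 60 genes met the minimum of 3 values. Their means stayed within a narrow range, from -0.55 to 0.52 for Ube2 and from -0.62 to 0.54 for Usp genes. Only Usp1 reached 1.5-fold, which 4.31% of all genes did. The median was -0.04 for Ube2 genes and -0.02 for Usp genes, against -0.02 for all genes.

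**Figure D1:**
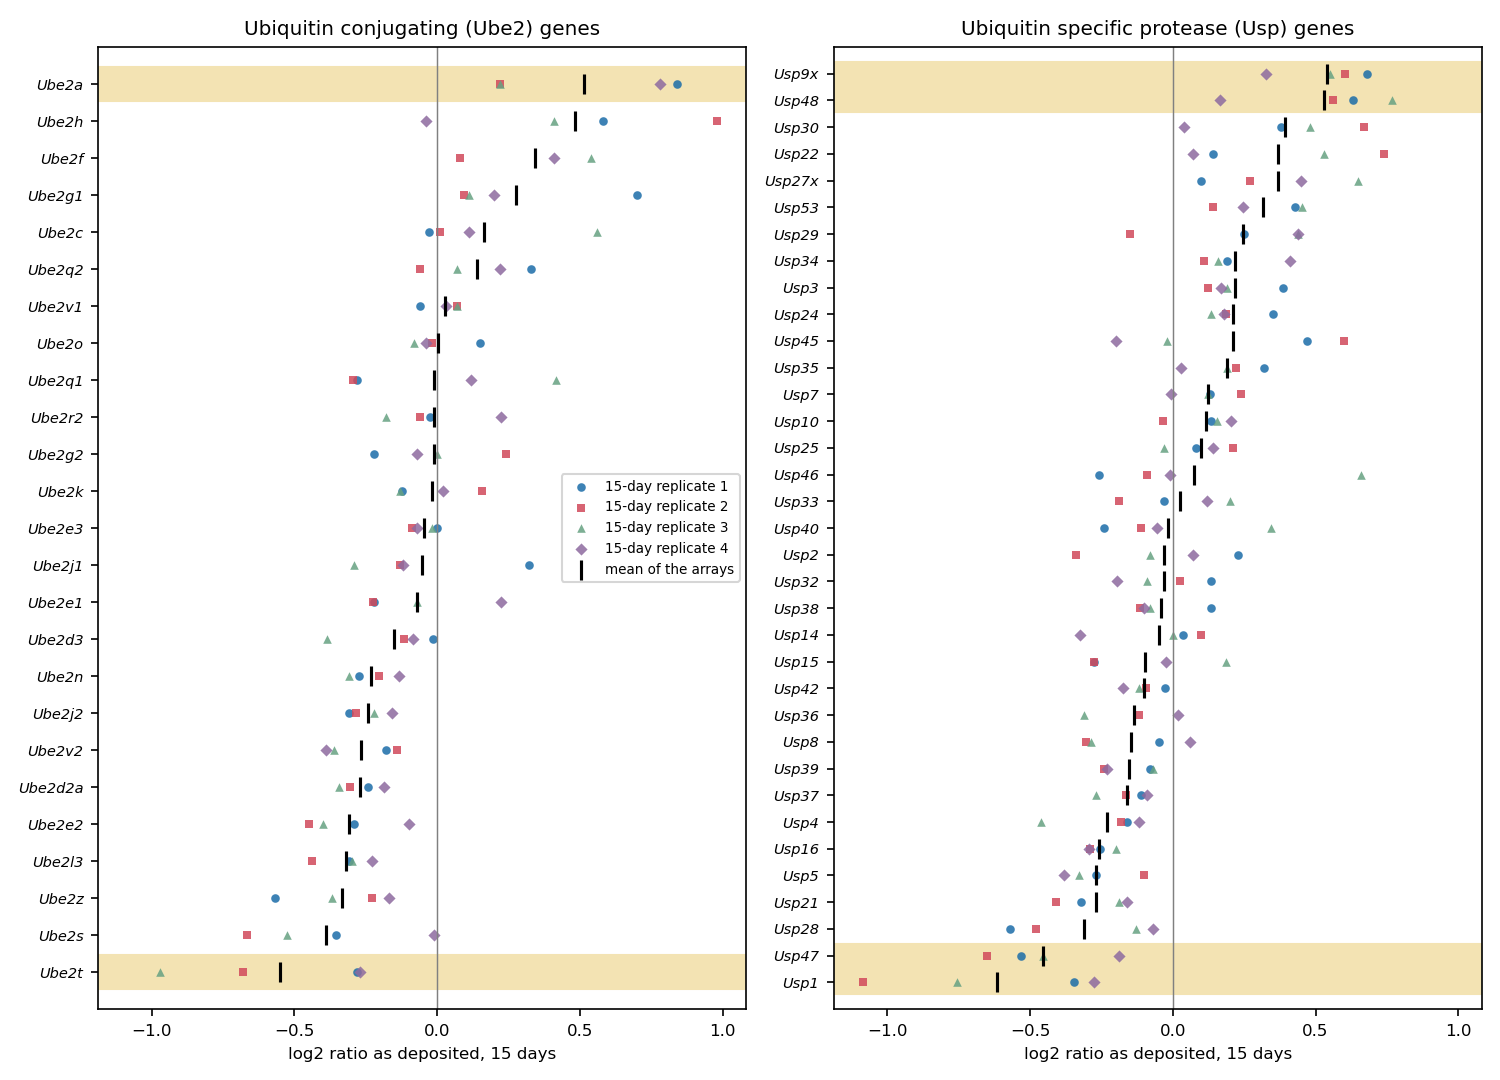
Log2 ratio as deposited (x axis) of each Ube2 gene (left) and each Usp gene (right) at 15 days, with 1 symbol per array and a bar for the mean. Shaded genes passed the test: Ube2a and Ube2t among the Ube2 genes, and Usp9x, Usp48, Usp47 and Usp1 among the Usp genes.

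Members above and below 0 were spread over both classes. Of the Ube2 genes 10 lay below 0 on every 15-day array with a value and 3 above it (40% and 12%), where 22.9% and 15.1% of all genes did. Of the Usp genes 10 lay below and 10 above (28.6% each). Together 52% of Ube2 and 57.1% of Usp genes had 1 sign on every array, against 38% of all genes. At an unadjusted p under 0.05 the count was 12 of 25 and 12 of 35, or 48% and 34.3%, against 28.7% of all genes.

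Ube2t and Usp1 act on the same repair pathway from opposite sides. Ube2t is the E2 of the Fanconi anaemia pathway, which repairs DNA crosslinks, and Usp1 removes the ubiquitin that Ube2t places. Both lay below 0 on all 4 arrays. Ube2t stood at -0.28, -0.68, -0.97 and -0.27 on replicates 1 to 4, lowest on replicate 3 and closest to 0 on replicates 1 and 4. Its mean was -0.55 (SE 0.13, 1.46-fold, limma adjusted p = 0.031). Usp1 stood at -0.35, -1.09, -0.76 and -0.28, lowest on replicate 2. Its mean was -0.62 (SE 0.14, 1.53-fold, limma adjusted p = 0.027), the lowest of all 60 genes.

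Usp47, a protease that acts on the base excision repair polymerase beta, lay below 0 on all 4 arrays as well. The values were -0.53, -0.65, -0.46 and -0.19, with replicate 4 closest to 0, and the mean was -0.46 (SE 0.11, 1.37-fold, limma adjusted p = 0.031). Usp48, a nuclear protease that works on histone ubiquitin, was above 0 on every array, at 0.63, 0.56, 0.77 and 0.17. Replicate 4 again lay closest to 0, and the mean was 0.53 (SE 0.12, 1.44-fold, limma adjusted p = 0.025).

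The other genes that passed above 0 are on the X chromosome. Usp9x encodes a large protease that stabilises many proteins, and it stood at 0.68, 0.60, 0.55 and 0.33, the tightest of the 6 passing genes (SE 0.10). Its mean was 0.54 (1.45-fold, limma adjusted p = 0.016). Ube2a encodes a histone and DNA repair E2 whose autosomal paralog Ube2b, needed for sperm formation, was not analysed here. It stood at 0.84, 0.22, 0.22 and 0.78, high on replicates 1 and 4, with a mean of 0.52 (SE 0.14, 1.43-fold, limma adjusted p = 0.039). The only other X-linked member was Usp27x, a small Usp22 relative, at 0.10, 0.27, 0.65 and 0.45. It was above 0 on every array without passing (0.37, SE 0.12, limma adjusted p = 0.068). So 2 of 3 X-linked members passed above 0, where 29 of 207 X-linked genes did (14.0%) and 1 passed below. The direction was shared by most of the chromosome. Of the 207 X-linked genes 154 had a mean above 0, with a median of 0.15, against 3219 of 6958 genes and a median of -0.02.

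Each of these 6 calls was lost when some single array was left out. Without replicate 3 none of the 6 genes passed, without replicate 2 only Ube2a did, without replicate 1 only Ube2t and Usp1, and without replicate 4 all but Ube2a. In a joint fit of both ages with a dye term, read by the labels, Ube2t, Usp9x and Usp47 passed, as did Ube2h and Usp30, and with the 15-day sign turned no member did.

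Upstream DNA is shown for members that passed on opposite sides of 0, so that their promoters can be compared. The sequences are the 250 bases before the annotated start in RefSeq, build GRCm38.p6, 5′ to 3′, for the 4 passing genes that the promoter table lists and for Ube2s, which passed between the ages. Capitals mark 3 motifs searched on both strands, the CCAAT box (CCAAT), the cell cycle element TTTGAA and the core of the CREB site (TGACGT). The motifs do not overlap in these windows.
Ube2t (chr1:134962315-134962564, plus strand, below 0): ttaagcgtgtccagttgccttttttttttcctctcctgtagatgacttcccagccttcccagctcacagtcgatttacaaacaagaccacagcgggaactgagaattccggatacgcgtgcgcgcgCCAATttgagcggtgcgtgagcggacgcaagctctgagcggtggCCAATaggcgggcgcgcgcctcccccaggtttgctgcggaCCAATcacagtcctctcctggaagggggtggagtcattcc
Usp47 (chr7:112023256-112023505, plus strand, below 0): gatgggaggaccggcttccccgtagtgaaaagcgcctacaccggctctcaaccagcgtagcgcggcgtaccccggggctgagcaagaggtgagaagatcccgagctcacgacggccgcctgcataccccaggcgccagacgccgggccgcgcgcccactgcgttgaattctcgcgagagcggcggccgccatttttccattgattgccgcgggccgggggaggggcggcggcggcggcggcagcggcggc
Ube2a (chrX:36874045-36874294, plus strand, above 0): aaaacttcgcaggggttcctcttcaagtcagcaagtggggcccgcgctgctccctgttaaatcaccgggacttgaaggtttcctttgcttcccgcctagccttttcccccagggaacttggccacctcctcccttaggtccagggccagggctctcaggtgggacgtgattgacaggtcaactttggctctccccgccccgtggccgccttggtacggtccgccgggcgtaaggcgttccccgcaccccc
Usp48 (chr4:137593922-137594171, plus strand, above 0): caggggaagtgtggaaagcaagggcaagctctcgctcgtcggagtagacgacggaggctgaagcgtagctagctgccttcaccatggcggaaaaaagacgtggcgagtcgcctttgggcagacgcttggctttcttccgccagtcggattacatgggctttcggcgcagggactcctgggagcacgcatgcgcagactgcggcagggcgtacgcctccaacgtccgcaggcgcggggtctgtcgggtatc
Ube2s (chr7:4812341-4812590, minus strand, passing between the ages): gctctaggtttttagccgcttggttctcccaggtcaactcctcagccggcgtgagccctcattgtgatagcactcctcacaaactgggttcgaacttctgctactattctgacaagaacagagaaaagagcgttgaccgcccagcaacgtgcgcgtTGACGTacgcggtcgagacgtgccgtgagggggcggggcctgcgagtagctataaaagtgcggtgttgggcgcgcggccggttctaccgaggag
Ube2t had 3 CCAAT boxes on the plus strand of the gene, with first bases at -124, -80 and -40 from the start. Ube2s had 1 TGACGT, with its first base at -94. Usp47, Ube2a and Usp48 held none of the 3 motifs. The GC content ran from 57.6% for Ube2t to 71.2% for Usp47. Of 54 windows listed for 46 of the 60 members, 18.5% held CCAAT, 7.4% TTTGAA and 9.3% TGACGT, against 33.8%, 16.0% and 6.5% of all 32851 windows. The member windows were richer in GC (median 69.4%) than all windows (52.4%), and a match in them is a description of the letters only.

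Among the E2 enzymes that work with the anaphase-promoting complex, the ligase that drives exit from mitosis and meiosis, Ube2s extends ubiquitin chains and Ube2c starts them. Ube2s lay at -0.36, -0.67, -0.53 and -0.01 at 15 days, close to 0 on replicate 4 alone. Its mean of -0.39 (SE 0.12, limma adjusted p = 0.069) did not pass, though it did without replicate 4, at -0.52 (adjusted p = 0.038). Ube2c lay at -0.03, 0.01, 0.56 and 0.11, so that its mean of 0.16 (SE 0.12) came mostly from replicate 3.

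Ube2n and its partners, which make ubiquitin chains, some of them for DNA damage signalling, lay near or below 0 without passing. Ube2n, the catalytic subunit, had a mean of -0.23 (SE 0.10), its partner Ube2v2, a variant without an active-site cysteine, -0.27 (SE 0.10) and the other partner Ube2v1 0.03 (SE 0.10). Ube2l3, which serves HECT and RING-between-RING ligases, was at -0.32 (SE 0.10), the class E2 Ube2e2 at -0.31 (SE 0.11) and Ube2z, which accepts ubiquitin from the E1 Uba6, at -0.34 (SE 0.11). The limma adjusted p of these 3 genes ran from 0.064 to 0.082. The widely used E2 genes Ube2d2a (-0.27) and Ube2d3 (-0.15) were also below 0 on all 4 arrays, as was Ube2j2 (-0.24), an E2 of the endoplasmic reticulum. Its relative Ube2j1, which is needed for male fertility in mice, lay at 0.32, -0.13, -0.29 and -0.12, on both sides of 0.

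Above 0, the E2 genes after Ube2a were Ube2h (0.48, SE 0.15, limma adjusted p = 0.067), Ube2f (0.34, SE 0.13, on 3 arrays), which conjugates NEDD8 in place of ubiquitin, and Ube2g1 (0.28, SE 0.12). Ube2h spread most, from -0.04 on replicate 4 to 0.98 on replicate 2. Ube2e1 (-0.07), Ube2e3 (-0.04), Ube2k (-0.02), Ube2g2, Ube2q1 and Ube2r2 (-0.01 each), Ube2o (0.0025) and Ube2q2 (0.14) completed the class, all within 0.15 of 0. A cDNA spot can bind RNA of a close paralog, such as Ube2d2a and Ube2d3, and the extent of this was not tested.

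Among the Usp genes that did not pass, the highest were Usp30, an enzyme of the mitochondrial outer membrane (0.39, SE 0.12), Usp22, the histone protease of the SAGA coactivator (0.37, SE 0.13), Usp27x and Usp53 (0.32, SE 0.10). The limma adjusted p of Usp30 was 0.062 and that of Usp22 0.091. Usp30 stood at 0.38, 0.67, 0.48 and 0.04, and Usp22 at 0.14, 0.74, 0.53 and 0.07, both lowest on replicate 4. The lowest after Usp1 and Usp47 were Usp28 (-0.31, SE 0.12), Usp21 (-0.27, SE 0.10), Usp5, which takes apart free ubiquitin chains (-0.27, SE 0.10), and Usp16, a histone protease (-0.26, SE 0.10), with limma adjusted p from 0.10 to 0.11. The mean of the 2 Usp16 probes was nearly the same on each array, from -0.29 to -0.20. The probes themselves varied more, 1 from -0.58 to -0.06 and the other from -0.34 to 0.0.

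Usp genes known from germ cells or meiosis lay from the lowest to the highest mean of the 60 genes, since Usp1 and Usp9x are among them. Of those not yet described, Usp2, which has testis isoforms, lay at -0.03 (SE 0.12) and Usp14, which binds the proteasome, at -0.05 (SE 0.11). Usp42 lay at -0.10 (SE 0.10) and Usp29, an imprinted gene, at 0.25 (SE 0.12). Usp26 and Usp44, also known from germ cells, were not analysed here. The remaining Usp genes without a value of their own here lay between -0.23 (Usp4) and 0.22 (Usp34), and none passed.

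Probes of the same gene often disagreed. At 15 days 29 members had values from more than 1 probe, and in 12 of them the probe means had both signs, 4 of 11 Ube2 and 8 of 18 Usp genes. The median gap between the highest and lowest probe mean of a gene was 0.28. Usp38 showed the widest gap, 1.15. One of its probes stood at -0.61, -0.96, -0.57 and -0.32 and the other at 0.88, 0.73, 0.41 and 0.12 on replicates 1 to 4. Each probe passed on its own, at -0.62 (SE 0.12, limma adjusted p = 0.013) and 0.54 (SE 0.14, adjusted p = 0.030), while the gene's mean was -0.04.

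The Usp48 call came from 1 of its 3 probes. That probe stood at 1.32, 1.43, 1.93 and 0.42, a mean of 1.28 (SE 0.19, 2.42-fold, limma adjusted p = 0.0037). The other 2 probes had means of 0.18 and 0.14 and did not pass. Usp9x was the opposite case, with all 5 probes above 0 on every 15-day array and 3 passing, at 0.72, 0.72 and 0.79, beside 0.34 and 0.13 for the rest. Usp1 had 1 probe at -0.86, which passed, and another at -0.38, which did not. Ube2s likewise had 1 probe at -0.61, which passed, and 1 at -0.17. Ube2a rested on 1 probe at 15 days, since its second probe had no value there, and Ube2t has only 1 probe.

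Usp3, a histone protease (0.52 and -0.08), Usp7, which controls the p53 regulator Mdm2 (0.42 and -0.17), and Usp8, an endosomal protease (-0.47 and 0.18), each had 1 probe that passed and 1 of opposite sign that did not. With each probe tested alone, 4 of 25 Ube2 and 9 of 35 Usp genes had a passing probe (16% and 25.7%), against 15.1% of all genes, which is 1048 of 6958. Among these, Ube2l3 (-0.48) and Usp24 (0.48) passed by 1 probe each, with the other probes on the same side of 0. A gene with more probes has more chances to pass by this rule. There were 42 probes for the 25 Ube2 genes and 60 for the 35 Usp genes, against 9604 for all 7117 genes. The smallest gaps were those of Ube2d3 and Ube2r2, 0.025 each.

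**Figure D2:**
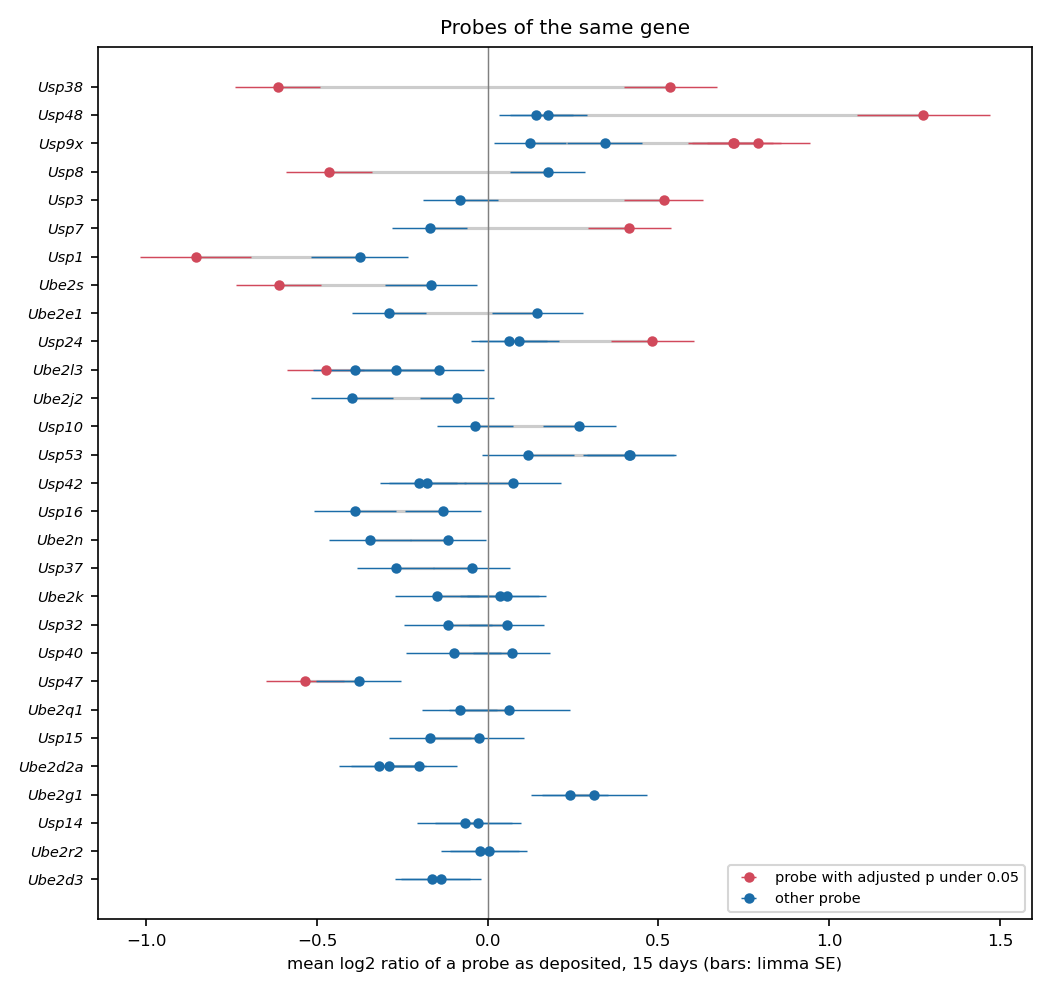
Mean log2 ratio as deposited at 15 days (x axis, bars are limma standard errors) of each probe of the 29 members with more than 1 measured probe, ordered by the gap between probes. Probes of Usp38 lay at -0.62 and 0.54, and 1 Usp48 probe at 1.28 lay far from the other 2.

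Other genes of the pathway were counted from lists chosen by function. Of 5 E1 genes and regulators measured, Nae1, a subunit of the enzyme that activates NEDD8, passed below 0 (-0.55, SE 0.14, limma adjusted p = 0.037) and none above. Of 7 ubiquitin and ubiquitin-like genes, Nedd8 itself passed below 0 (-0.47, SE 0.10, adjusted p = 0.024). Of 25 genes of other deubiquitinase families, Otud7b passed below 0 (-0.84, SE 0.13) and Uchl1, a protease of spermatogonia and neurons, above (0.36, SE 0.10). Of 65 E3 genes and scaffolds 3 passed above 0 and 5 below. Those of smallest p were Huwe1 (0.84), Ccnb1ip1 (-0.58), Rnf7 (-0.56) and Trim28 (-0.52). The others, named after their values were seen, were Cul4b (0.48) and Ubr2 (0.58) above 0 and Rbx1 (-0.37) and Cdc20 (-0.49) below. Rnf7 and Rbx1 are the RING subunits of cullin ligases, which NEDD8 activates. Ube2f, the E2 that pairs with Rnf7, had the opposite sign without passing, as did Uba3 of the E1 list (0.26, SE 0.13). The cullin genes Cul1 (0.03), Cul3 (-0.24), Cul5 (0.19) and Cul7 (0.06) did not pass either. The share that passed, list by list, ran from 8% to 20%, against 11.2% of all genes.

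Markers of germ cell stages, chosen with earlier results of these data known, differed on the same arrays. Of 7 measured pachytene and later spermatocyte markers 5 passed below 0, with list medians from -1.06 to -0.75 on the 4 arrays. Those that did not pass were Sycp3, above 0 at 0.23 (SE 0.17), and Mlh3, at -0.15 (SE 0.11). Of 8 spermatogonial markers 3 passed above 0, with list medians from 0.21 to 0.41. Sertoli, Leydig, peritubular, macrophage and endothelial or blood markers had from 0 to 2 passing members per list. Ccnb1ip1 and Uchl1 belong both to these marker lists and to the pathway lists. What part cell makeup had in the Ube2 and Usp values was not tested.

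The 12-day comparison asks the same at a younger age, and no Ube2 or Usp gene passed. By limma 0 of 25 Ube2 and 0 of 32 Usp genes passed, as did 0% of all 6237 genes. At an unadjusted p under 0.05 there were 2 Ube2 genes and 1 Usp gene, against 1.92% of all genes. Usp21, Usp27x and Usp45 had too few values. Values here are Spo11-/- over wild type if ratios are Cy5 over Cy3, with each gene's dye effect fitted. They ran from -0.36 to 0.28 for Ube2 and from -0.21 to 0.21 for Usp genes, with medians of -0.0044 and 0.04, against -0.01 for all genes.

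The 3 genes were Ube2s at -0.36 (SE 0.10), Ube2a at 0.28 (SE 0.10) and Usp30 at -0.20 (SE 0.08). The mean of the 2 Ube2a probes changed sign with the dye of Spo11-/- RNA, so it kept the same sign as Spo11-/- over wild type. As deposited it stood at 0.13, 0.17 and 0.48 where Spo11-/- RNA was in Cy5 and at -0.10 and -0.50 where it was in Cy3. The probe behind the 15-day call did not change sign on replicate 2, at 0.05, where the other probe, without a value at 15 days, stood at -0.25. The mean of the 2 Ube2s probes changed sign with the dye in the other direction, at -0.22, -0.09 and -0.22 with Cy5 and at 0.29 and 0.80 with Cy3. Neither Ube2s probe did so on every array, since 1 stood at -0.06 on replicate 2 and the other at 0.08 on replicate 4. The highest of these values came from replicate 3, where the median of the pachytene markers was 0.92, against -0.29 to 0.26 on the other 12-day arrays. What this array's marker values have to do with Ube2s was not tested. Usp30 did not change sign with the dye. It lay below 0 on all 5 arrays as deposited, from -0.67 to -0.17, whichever dye Spo11-/- RNA carried.

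Counted over the members as means of their probes, 2 Ube2 genes (8%) and 2 Usp genes (6.25%) had the same sign as Spo11-/- over wild type on every 12-day array. Their deposited sign thus changed with the dye of Spo11-/- RNA. They were Ube2a, Ube2s, Usp7 and Usp14, against 5.27% of all genes. Another 5 Ube2 genes and 3 Usp genes had the same deposited sign on every array whichever dye Spo11-/- RNA carried, against 13.3% of all genes. These were Ube2d2a, Ube2f, Ube2g2, Ube2h, Ube2o, Usp25, Usp30 and Usp48. The mean of the 3 Usp48 probes was above 0 on all 9 arrays. On 12-day replicates 1 to 5 it stood at 0.22, 0.14, 0.09, 0.10 and 0.14 (fitted Spo11-/- over wild type 0.02, SE 0.08). No single Usp48 probe was above 0 on all of them. The probe behind the 15-day call stood at -0.04 on 12-day replicate 5, and the others at -0.03 and -0.10 on replicate 3. Ube2h was below 0 on all 5 arrays at 12 days, from -0.69 to -0.04, and above 0 on 3 of 4 at 15 days.

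The other genes that passed at 15 days did not pass at 12 days. As deposited, Usp9x stood at 0.45, -0.31, -0.28, 0.12 and -0.16 on replicates 1 to 5, high on replicate 1 with Cy5 and low on both arrays with Cy3 (fitted 0.21, SE 0.11). Ube2t stood at 0.24, -0.19, 0.36, 0.42 and 0.32, below 0 on replicate 2 alone (0.12, SE 0.11). Usp1 stood at 0.07, -0.10, 0.49, -0.08 and -0.67, with its extremes on replicates 3 and 5 (-0.21, SE 0.15). Only 1 Usp1 probe had a value on replicate 3, and on replicate 5 that probe stood at -1.23 and the other at -0.10. Usp47 stood at 0.41, 0.00, 0.13, 0.39 and 0.06, on no array below 0 (0.11, SE 0.09). Some probes of Usp47 and Usp9x also lacked values on part of the 12-day arrays, so their means mix probe sets. Usp2 ranged from -1.20 on replicate 1 to 0.23 on replicate 5 (0.09, SE 0.20), and Ube2z from -0.94 to 0.51 on the same arrays (-0.17, SE 0.21).

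**Figure D3:**
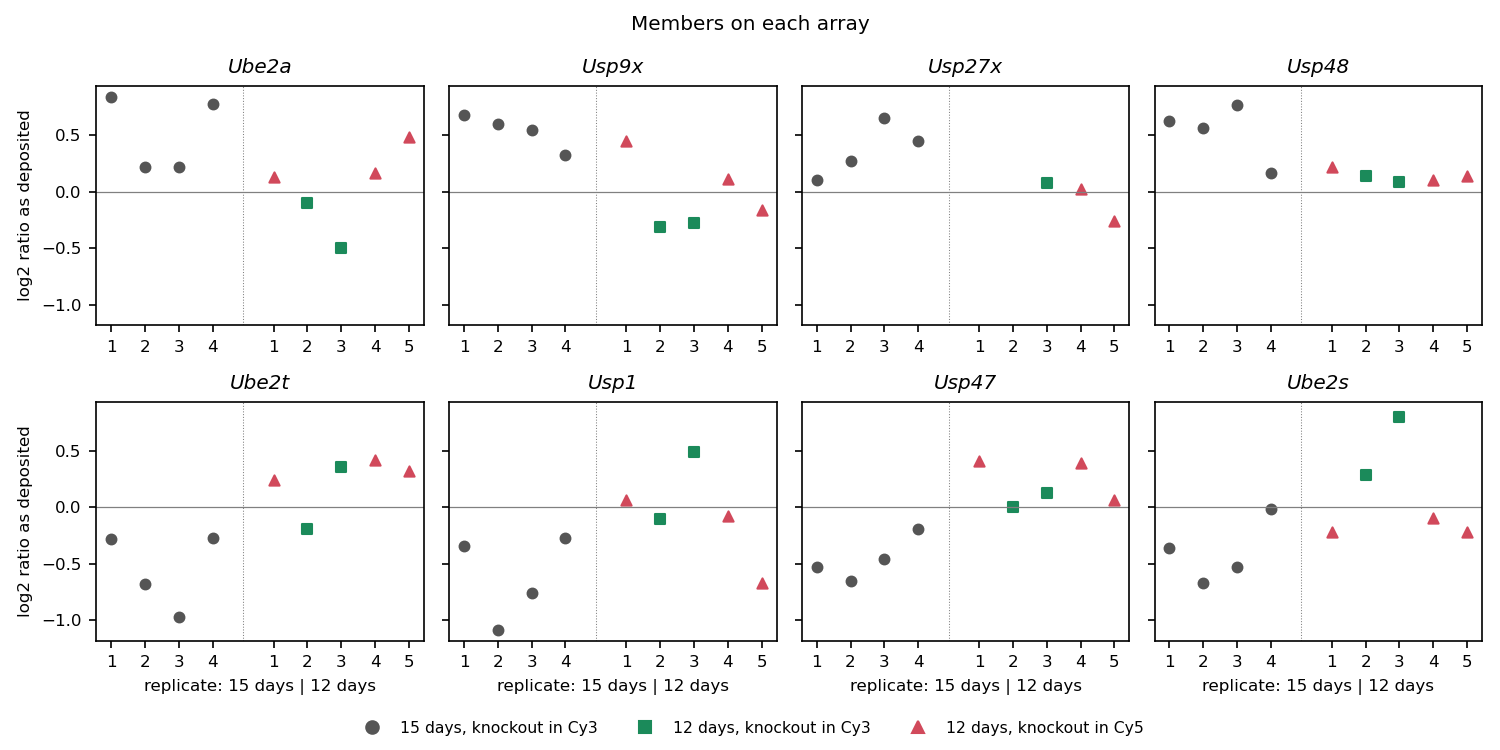
Log2 ratio as deposited (y axis) of 8 members on the 4 arrays at 15 days (circles) and the 5 arrays at 12 days (squares for Spo11-/- RNA in Cy3, triangles for Cy5). The probe means of Ube2a and Ube2s change sign with the dye at 12 days, while that of Usp48 is above 0 on all 9 arrays.

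The last comparison asks whether the Spo11-/- effect differed between 15 and 12 days. Because of the shared dye term, each estimate is the 15-day mean minus the mean of 12-day replicates 2 and 3, and the other 12-day arrays add only to the spread. Under the label reading, which takes both ages as Cy5 over Cy3, 1 of 25 Ube2 genes was higher at 15 days and 1 of 32 Usp genes lower. That is 4% and 3.12%, against 2.41% of all 6144 genes, 1.69% higher and 0.716% lower. Ube2s was higher at 15 days by 0.93 (SE 0.21, limma adjusted p = 0.048) and Usp9x lower, at -0.83 (SE 0.19, adjusted p = 0.048). With the 15-day sign turned they stood at 0.15 (SE 0.21) and 0.25 (SE 0.19), and 0 of 57 members and 0% of all genes passed by limma. At an unadjusted p under 0.05 there were then 1 Ube2 gene and 2 Usp genes, against 6.01% of all genes.

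Both calls of the label reading ended without 15-day replicate 1, 2 or 3 or 12-day replicate 2, 3 or 4. In these fits Ube2s ranged from 0.67 to 1.19 (adjusted p 0.071 to 0.31) and Usp9x from -0.85 to -0.79 (adjusted p 0.072 to 0.25). On the same arrays and reading, 4 of 6 pachytene markers passed as higher at 15 days, and their part in these results was not tested. Of the pathway lists Nedd8 (0.80) and Rnf7 (0.88) passed as higher and Huwe1 (-1.45) and Cul4b (-0.78) as lower, and none did with the sign turned.

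Next in order under the label reading were Ube2h at -0.98 (SE 0.26, limma adjusted p = 0.070) and Ube2a at -0.81 (SE 0.23, adjusted p = 0.086), neither past the threshold. Among Usp genes these were Usp53 at -0.51 (SE 0.16, adjusted p = 0.12) and Usp5 at 0.49 (SE 0.16, adjusted p = 0.12). With the sign turned the genes of smallest p were Usp48 at 0.64 (SE 0.18), Usp16 at -0.49 (SE 0.15) and Usp47 at -0.39 (SE 0.18), and among Ube2 genes Ube2e3 at -0.35 (SE 0.15), Ube2t at -0.47 (SE 0.23) and Ube2f at 0.47 (SE 0.25). None of these 6 passed.

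Without any dye term, the arrays of the 2 ages can also be set side by side gene by gene. Under the label reading they did not overlap in 11 of 32 Usp genes (34.4%) and 3 of 25 Ube2 genes (12%), against 10.6% of all genes. Of the 11, Usp3, Usp7, Usp9x, Usp24, Usp34, Usp48 and Usp53 were lower at 15 days and Usp1, Usp4, Usp5 and Usp28 higher. Of the Ube2 genes, Ube2a was lower and Ube2n and Ube2s higher. Usp9x lay between -0.68 and -0.33 at 15 days and between -0.16 and 0.45 at 12 days. Usp1 lay between 0.28 and 1.09 against -0.67 to 0.10. With the sign turned, 2 Ube2 genes (Ube2d2a and Ube2n) and 2 Usp genes (Usp16 and Usp47) did not overlap, all lower at 15 days, against 6.33% of all genes. The gap could be narrow, as in Usp7 under the label reading, with a highest value of 0.0050 at 15 days and a lowest of 0.07 at 12 days.

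**Figure D4:**
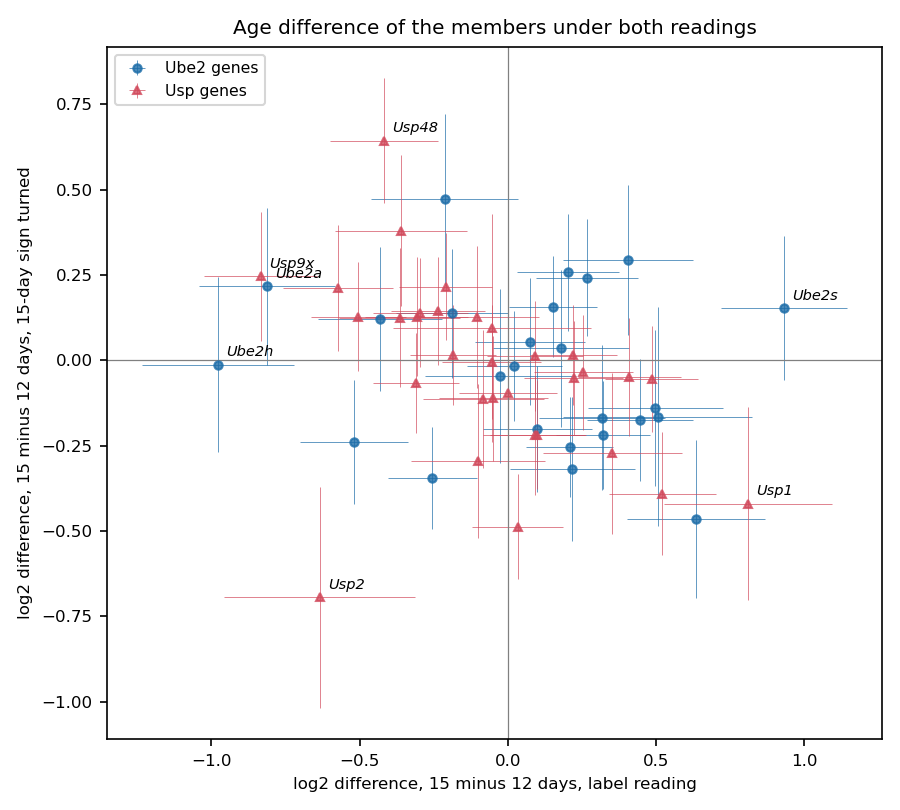
Difference of the log2 ratio between 15 and 12 days under the label reading (x axis) and with the 15-day sign turned (y axis) for the 57 members tested, with limma standard errors. Ube2s lies farthest right at 0.93 and Ube2h farthest left at -0.98, and both are near 0 on the other axis.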

How the data were processed

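Per the series' design text, the authors read and flagged spots with GenePix software and centred each array on its median. The deposited values are log ratios, read here as log2. Their log base, background correction and direction are not stated. Spot intensities were not used here, and precision is limited by the number of arrays.

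The platform annotation gave 1 gene for 9604 of 16128 probes and several for 213. Entrez IDs matched a RefSeq table (GRCm38.p6) for 98.9% of the former. Probes of 1 gene were averaged per array, and other probes kept as features. Arrays were centred again on the median and tested in R 4.3.3 with limma 3.58.1 (two-sided moderated test by lmFit and eBayes, Benjamini-Hochberg over 12198 features at 15 days, 10075 at 12 days and 9851 between the ages). At 15 days the mean was tested against 0 (at least 3 values). At 12 days a dye intercept was fitted (at least 4 values, both orientations), and the age difference came from all 9 arrays with 1 dye term. The authors called genes with SAM, and limma was used in its place. The fits were tested on simulated data with 100 changed features of each size. At a true log2 of 0.5, 17 of 100 were recovered at 15 days, 20 at 12 days and 2 between the ages under the label reading. At a true log2 of 1 these were 74, 81 and 44. With so few changed features a call needed a smaller p than on the real 15-day arrays, where 12.4% of all features passed. The 15-day recovery rates are therefore not those of the real data. A member that did not pass may still differ between Spo11-/- and wild type.

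Named genes were those passing a test, the 5 highest and lowest of each class at 15 days, the 3 of smallest p in each other comparison, X-linked members, those with probes of both signs, and members known from germ cells. Members and lists were chosen with earlier results of these data known. Alternatives changed the filter, the centring and scaling, the use of single probes, the variance model, the threshold, a correction by neighbouring probes, the dye terms and a block by array title number, and left out each array.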

Additional observations from a re-analysis of the deposited data

Results flagged for a closer look

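Ube2s and Usp9x had an age difference past the threshold under the label reading, of 0.931 and -0.834. Neither passed with the 15-day sign turned.

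One array stood apart from the others of its age for 6 of the values below, by a gap to the nearest other array that was large for the range of the group. Chance gives this in about 1 of 20 groups, and here it occurred for 1 of 58 members at 15 days and 5 of 57 at 12 days. At 12 days, as Spo11-/- over wild type by the label reading, replicate 5 was lowest for Ube2d3 (-0.331, others 0.05 to 0.17), Ube2q1 (-0.774, others -0.15 to 0.09) and Usp28 (-0.722, others -0.14 to 0.06). Replicate 3 was lowest for Ube2s (-0.80, others -0.28 to -0.09) and for Usp4 (-0.39, others -0.01 to 0.03). At 15 days replicate 1 was highest for Usp38 (0.135 as deposited, others -0.12 to -0.08), the gene whose 2 probes had opposite signs. In Ube2d3 the low value came from 1 of its 3 probes, at -1.16 on that array.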

How the results depend on the processing

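At 15 days 2 Ube2 and 4 Usp genes passed. These counts were the same with complete values, without further centring, with equal array spread, with quantile normalization and with robust variances. They were 4 and 9 with single probes, 6 and 7 after subtraction of neighbouring probes on the array, 0 and 0 at the thresholds of the design text (0.01 and 1.5-fold), and 0 and 0 in the joint fit with the 15-day sign turned. Leaving out 1 array gave 0 to 3 Ube2 and 0 to 5 Usp genes. Between the ages under the label reading, the 1 Ube2 gene became 2 with equal array spread, 3 with quantile normalization, 2 after subtraction of neighbouring probes and 0 at the stricter threshold, and 0 to 3 with 1 array left out. The 1 Usp gene became 2 with single probes, 3 after that subtraction and 0 at the stricter threshold, and 0 to 1 with 1 array left out. The cause of these shifts was not tested. Where leaving out 12-day replicate 2 or 3 left a single 12-day array with Spo11-/- RNA in Cy3, it was assumed to vary like the others. The count stayed 0 at 12 days, and between the ages with the sign turned, in both classes under every alternative run. No passing member changed sign under any alternative, where the probe of smallest p stood for the gene in the single-probe test. By that choice a second passing probe of Usp38, at 0.54 against a gene mean of -0.04, was left out. Of the values of named members under the alternatives, 580 at 15 days and 629 at 12 days, 27 and 49 had the opposite sign, all in members that did not pass. No paired analysis was possible because replicates were numbered in order of deposit, and each array already pairs 1 Spo11-/- with 1 wild-type sample.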
